A study of Mus musculus with 15 samples.

Results

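Transcripts of 9 genes that make, carry, sense or destroy retinoic acid were followed in mouse embryonic stem cells (mESCs) that had lost the cohesin subunit STAG1 or STAG2, or STAG2 together with most of the Stag1 transcript. The genes are Stra6, Stra8, Crabp1, Crabp2, Aldh1a2, Aldh1a3, Cyp26a1, Rarb and Dhrs3. They were taken by symbol for their known place in the pathway, with no threshold on a measured value. They are 9 of the 23412 genes counted in 15 polyA RNA-seq libraries, and all 9 were among the 14508 genes tested.

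The cells were v6.5 mESCs of 3 genotypes, namely wild type, Stag1-/- and Stag2-/-, and each knockout line was 1 clone made with CRISPR/Cas9. All cells had been transfected with 50 nM siRNA and were collected 48 h later, so the controls had also received an oligo. The 5 conditions with 3 replicates each were compared: wild-type cells with the non-targeting control siGLO, wild-type cells with siRNA against Stag1 (siStag1), Stag1-/- cells with siGLO, Stag2-/- cells with siGLO, and Stag2-/- cells with siStag1. The last condition joins the loss of STAG2 to depletion of the Stag1 transcript, and a clone and its genotype cannot be told apart in this design.

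Retinol enters cells through STRA6 and is oxidised to retinaldehyde and then, by enzymes such as ALDH1A2 and ALDH1A3, to retinoic acid. DHRS3 works against this flow by reducing retinaldehyde back to retinol, and CYP26A1 breaks retinoic acid down. CRABP1 and CRABP2 carry retinoic acid in the cytoplasm, CRABP2 towards the nuclear receptors, of which RARB is itself encoded by a classical retinoic acid target gene. Retinoic acid drives mESCs out of pluripotency, and Stra6 and Stra8 take their names from being stimulated by retinoic acid.

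Receptor dimers bind a direct repeat of a short motif, and the repeat spaced by 5 bases, DR5, is the retinoic acid response element described for Rarb and Cyp26a1. These elements are shown because both genes that carry one are members whose counts moved in the comparisons described further on. RefSeq promoter windows (GRCm38.p6, from 250 bases before to 50 bases after a start) were found for 7 of the 9 genes, 12 windows in all, but not for Crabp2 and Aldh1a3. DR5, DR1 and DR2 (repeats spaced by 5, 1 and 2 bases) were searched on both strands. DR5 was found in 2 of the 12 windows, those of Rarb and Cyp26a1, and in 0.0974% of all 32851 windows. DR1 and DR2 stood in none of the 12 and in 0.222% and 0.268% of all windows. The Rarb element lies at chr14:16575513-16575529, from 53 to 37 bases before the start and on the strand of the gene, and the Cyp26a1 element at chr19:37697776-37697792, from 32 to 16 bases before the start and on the opposite strand. Each is given 5′ to 3′ on its own strand, with the repeated motifs in capitals.
Rarb element: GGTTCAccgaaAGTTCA
Cyp26a1 element: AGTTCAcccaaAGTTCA
Counted from 1 at the 5′ end of the Rarb element, the 17-base elements differ by G1A and G9C, from Rarb to Cyp26a1. The 250 bases before each start follow on the strand of the gene, at chr14:16575477-16575726 (minus strand) and chr19:37697558-37697807 (plus strand), with the whole element in capitals.
Rarb upstream: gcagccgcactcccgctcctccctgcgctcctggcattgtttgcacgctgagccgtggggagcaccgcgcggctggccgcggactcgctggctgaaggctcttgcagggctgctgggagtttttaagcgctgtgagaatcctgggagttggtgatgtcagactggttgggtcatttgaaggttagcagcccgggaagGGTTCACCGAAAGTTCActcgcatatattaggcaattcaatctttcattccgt
Cyp26a1 upstream: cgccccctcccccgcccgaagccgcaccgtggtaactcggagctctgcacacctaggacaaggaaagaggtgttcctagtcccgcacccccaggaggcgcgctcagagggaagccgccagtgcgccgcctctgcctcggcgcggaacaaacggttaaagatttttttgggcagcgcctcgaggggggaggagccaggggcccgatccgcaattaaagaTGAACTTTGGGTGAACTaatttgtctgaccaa
A match of letters is a description of the window and not evidence that a receptor was bound.

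Between 14982560 and 19070126 counts fell on genes per library (median 17700059), and the members had 0 to 594 raw counts per library. Values are given as normalized counts, which are raw counts divided by the library's effective size and brought to the common depth of 17409359, so 3 raw counts stand for 2.71 to 3.50 normalized counts. This floor covers counting error only. Stag2 fell in Stag2-/- siGLO cells (log2 fold change -1.75) and Stag1 fell after siStag1 in wild-type (-2.28) and in Stag2-/- cells (-1.53). The Stag1 count of Stag1-/- cells was not called (-0.09), so it does not check the label of that clone. The study states that the clone used for RNA-seq carries an in-frame deletion, with a normal amount of Stag1 transcript and no STAG1 protein detected. All 8 pluripotency markers examined were detected in every condition. A gene was called at a Benjamini-Hochberg adjusted p under 0.1 over all genes tested, by edgeR's two-sided quasi-likelihood test. In bulk RNA, fewer cells that express a gene and less RNA per cell cannot be told apart.

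**Figure D1:**
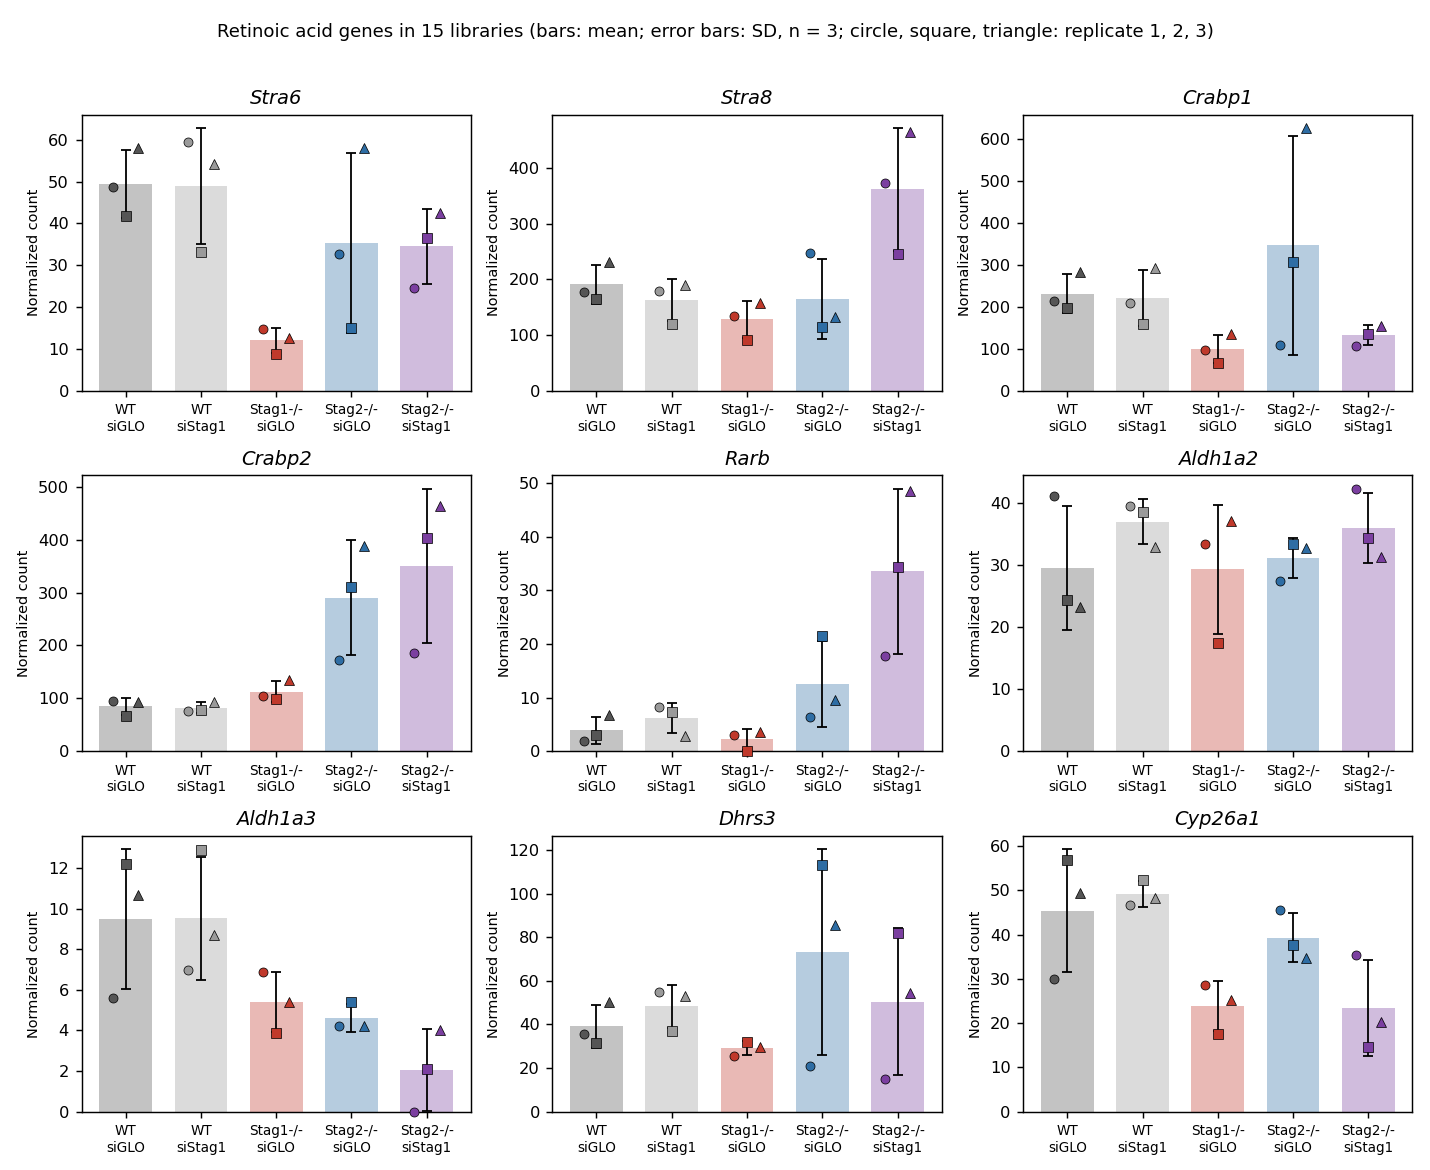
Normalized counts of the 9 genes (y axis, from 0) in 5 conditions, with bars for the mean, error bars for the SD (n = 3) and 1 point per library, shaped by replicate number. Crabp2 is higher in all 6 Stag2-/- libraries than in the other 9, and Stra6 is lowest in the Stag1-/- libraries.

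In wild-type siGLO cells the members spanned a wide range of levels. Per kilobase of exon, the normalized count was 288 ± 57.5 (SD, n = 3) for Crabp1, 106 ± 19.6 for Stra8, 64.2 ± 12.3 for Crabp2, 22.9 ± 7.03 for Cyp26a1, 13.4 ± 3.39 for Dhrs3, 13.1 ± 4.43 for Aldh1a2, 8.49 ± 1.41 for Stra6, 2.06 ± 0.746 for Aldh1a3 and 0.740 ± 0.486 for Rarb. The 3 neighbouring pairs in this order whose SDs overlapped were Cyp26a1 and Dhrs3, Dhrs3 and Aldh1a2, and Aldh1a2 and Stra6. In Stag2-/- siStag1 cells the highest level per kilobase was that of Crabp2 (266 ± 110), followed within its SD by Stra8 (200 ± 61.2) and Crabp1 (164 ± 29.7), and Rarb (6.37 ± 2.93) stood beside Stra6 (5.92 ± 1.56). Aldh1a3 was last, at 0.442 ± 0.438. The oxidising enzyme expressed at the higher level in all conditions was thus Aldh1a2.

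Both carriers of retinoic acid moved, in different conditions. Crabp2 (chr3:87948666-87953376) rose in Stag2-/- cells and in Stag2-/- siStag1 cells, and it was the member with the smallest adjusted p in both comparisons. Normalized counts were 94.4, 66.1 and 93.9 in wild-type siGLO replicates 1, 2 and 3, and 172, 311 and 388 in Stag2-/- siGLO. With siStag1 added they were 186, 402 and 464. They were 105, 98.3 and 135 in Stag1-/- siGLO and 75.8, 78.2 and 93.8 in wild-type siStag1. Every Stag2-/- library was above every library of the other conditions, and replicate 1 was the lowest of both Stag2-/- conditions. The rise was 3.42-fold in Stag2-/- cells (log2 fold change 1.77, SE 0.32, adjusted p = 0.00114) and 4.13-fold in Stag2-/- siStag1 cells (2.05, SE 0.32, adjusted p = 0.000126). The comparisons share the wild-type siGLO libraries. Adding siStag1 to Stag2-/- cells gave 0.27 (SE 0.30, adjusted p = 0.705). In Stag1-/- cells the value was 0.41 (adjusted p = 0.456), and the direct test placed Crabp2 lower in Stag1-/- than in Stag2-/- cells (-1.36, SE 0.31, adjusted p = 0.00644).

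Crabp1 (chr9:54764748-54773110), the other carrier, had normalized counts of 214, 196 and 284 in wild-type siGLO and 97.4, 67.2 and 135 in Stag1-/- siGLO, which did not overlap. It fell by 1.21 on the log2 scale in Stag1-/- cells (SE 0.44, adjusted p = 0.0801). This call was lost when any 1 of 5 of the 6 libraries compared was left out, the exception being Stag1-/- replicate 3, with adjusted p from 0.119 (without wild-type replicate 2) to 0.230 (without Stag1-/- replicate 2). In Stag2-/- siGLO cells the counts were 108, 306 and 627. They lay on both sides of wild type (log2 fold change 0.58, SE 0.42, adjusted p = 0.346). Without Stag2-/- replicate 1 Crabp1 was called higher (1.01, adjusted p = 0.0257) and without replicate 3 the value was -0.16. With siStag1 in Stag2-/- cells the counts were 106, 135 and 154, all below wild-type siGLO, with a log2 fold change of -0.81 that was not called (SE 0.43, adjusted p = 0.157). It was called with the replicate block (adjusted p = 0.0406) and when only the libraries compared were fitted (adjusted p = 0.0148). Against Stag2-/- siGLO cells this was a fall by 1.40 (SE 0.43, adjusted p = 0.0878) although replicate 1 of both conditions was alike. That call was lost without Stag2-/- siGLO replicate 2 or 3 or any siStag1 replicate, with adjusted p up to 0.391 (log2 fold change -0.65) without Stag2-/- siGLO replicate 3. It was also lost when only the libraries compared were fitted (adjusted p = 0.327) and with library size alone (adjusted p = 0.107). Wild-type siStag1 cells had 209, 160 and 293. The siStag1 effect in Stag2-/- cells minus that in wild-type cells was -1.33 (unadjusted p = 0.0423, adjusted p = 0.832). The direct test placed Crabp1 lower in Stag1-/- than in Stag2-/- cells (-1.79, SE 0.44, adjusted p = 0.0101) although their replicates overlapped. Without Stag2-/- replicate 3 that value was -1.05 (adjusted p = 0.0722).

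Stra6 (chr9:58063788-58153996), the retinol transporter, was low in the Stag1 clone. Normalized counts were 48.6, 41.7 and 58.1 in wild-type siGLO and 14.8, 8.76 and 12.7 in Stag1-/- siGLO, a 4.07-fold fall (log2 fold change -2.03, SE 0.43, adjusted p = 0.00437). This call held under each of the 14 alternatives run for it, with log2 fold changes from -2.19 to -1.84. Wild-type cells with siStag1 had 59.4, 33.1 and 54.2, and these overlapped the siGLO values (-0.02, SE 0.37, adjusted p = 0.999). Stag2-/- siGLO cells had 32.8, 15.1 and 58.1 and Stag2-/- siStag1 cells 24.6, 36.4 and 42.5, neither of which was called (-0.48 and -0.52). The Stag1-/- libraries were all below the Stag2-/- siGLO libraries, the highest of the former being 14.8 and the lowest of the latter 15.1 (-1.54, SE 0.44, adjusted p = 0.0224). Without Stag2-/- replicate 3 that difference was -0.98 (adjusted p = 0.137), and Stra6 was then called lower in Stag2-/- than in wild-type cells (-1.04, adjusted p = 0.0835).

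The enzymes that oxidise retinaldehyde differed from each other. Aldh1a2 (chr9:71215789-71296243) was called in none of the 7 comparisons by edgeR, nor by DESeq2, and none had an unadjusted p under 0.05. Its normalized counts were 41.1, 24.4 and 23.2 in wild-type siGLO, 33.5, 17.5 and 37.1 in Stag1-/- siGLO, 39.6, 38.6 and 32.9 in wild-type siStag1, 27.5, 33.4 and 32.7 in Stag2-/- siGLO and 42.4, 34.3 and 31.4 in Stag2-/- siStag1. All of these ranges overlapped that of wild-type siGLO, and the SEs of its log2 fold changes against wild-type siGLO were 0.31. Aldh1a3 (chr7:66390890-66427517) was close to the floor, with 5.61, 12.2 and 10.7 normalized counts in wild-type siGLO, 6.99, 12.9 and 8.71 in wild-type siStag1, 6.89, 3.89 and 5.42 in Stag1-/- siGLO, 4.23, 5.39 and 4.22 in Stag2-/- siGLO and 0, 2.08 and 4.05 in Stag2-/- siStag1. The last values were 0, 2 and 4 raw reads. It fell by 2.15 on the log2 scale in Stag2-/- siStag1 cells (SE 0.65, adjusted p = 0.0163), with no overlap between the groups. With single libraries left out the value ranged from -1.58 (without siStag1 replicate 1) to -3.07 (without siStag1 replicate 3). It passed the expression filter through 3 wild-type libraries alone, so it was tested because it was higher there.

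Dhrs3 (chr4:144892827-144928209), which returns retinaldehyde to retinol, was not called against wild-type siGLO in any condition, and its Stag2-/- replicates lay far apart. Normalized counts were 35.5, 31.5 and 50.3 in wild-type siGLO, 54.8, 36.8 and 53.2 in wild-type siStag1, 21.2, 113 and 85.5 in Stag2-/- siGLO and 14.8, 82.2 and 54.6 in Stag2-/- siStag1. Replicate 1 was below wild type in both Stag2-/- conditions, and replicates 2 and 3 were above it. The log2 fold change was 0.90 in Stag2-/- cells (SE 0.52, adjusted p = 0.234) and 0.36 in Stag2-/- siStag1 cells (adjusted p = 0.624). Without replicate 1 of Stag2-/- siGLO it was 1.34 (adjusted p = 0.0371), and without replicate 1 of both Stag2-/- conditions the siStag1 value was 0.80 (adjusted p = 0.0329), an exclusion made after seeing the data. Without replicate 2 of the Stag2-/- condition compared, the values were 0.45 in Stag2-/- (adjusted p = 0.640) and -0.18 in Stag2-/- siStag1 cells (adjusted p = 0.846). Stag1-/- siGLO cells had 25.6, 32.1 and 29.8 and were lower than Stag2-/- siGLO cells (-1.32, SE 0.53, adjusted p = 0.0942). This call was lost when any 1 of 5 of the 6 libraries was left out, the exception being Stag2-/- replicate 1, with adjusted p up to 0.340 without Stag2-/- replicate 2. It was also lost when only the libraries compared were fitted (adjusted p = 0.108).

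Cyp26a1 (chr19:37697798-37701536), whose product breaks retinoic acid down, fell in Stag1-/- cells and in Stag2-/- siStag1 cells. Normalized counts were 29.9, 56.9 and 49.4 in wild-type siGLO, 28.5, 17.5 and 25.3 in Stag1-/- siGLO and 35.5, 14.6 and 20.2 in Stag2-/- siStag1. The Stag1-/- libraries lay just below wild-type replicate 1, and replicate 1 of Stag2-/- siStag1 lay above it. The fall was 0.93 on the log2 scale in Stag1-/- cells (log2 fold change -0.93, SE 0.33, adjusted p = 0.0728) and 0.94 in Stag2-/- siStag1 cells (-0.94, SE 0.33, adjusted p = 0.0355). Stag2-/- siGLO cells (45.5, 37.7 and 34.8) and wild-type siStag1 cells (46.6, 52.4 and 48.4) were not called. The Stag1-/- call was lost without wild-type replicate 2 (-0.73, adjusted p = 0.258) or 3 (adjusted p = 0.164) or Stag1-/- replicate 2 (adjusted p = 0.213) or 3 (adjusted p = 0.115). The Stag2-/- siStag1 call was lost without wild-type replicate 2 (adjusted p = 0.145) or siStag1 replicate 2 (adjusted p = 0.145) or 3 (adjusted p = 0.108). Adding siStag1 to Stag2-/- cells gave -0.74 (SE 0.34, adjusted p = 0.275), which was called without siStag1 replicate 1 (-1.17, adjusted p = 0.0617). Between Stag1-/- and Stag2-/- cells the value was -0.72 (adjusted p = 0.147), with no overlap.

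Rarb (chr14:16430839-16819156, minus strand), the receptor gene, rose in Stag2-/- siStag1 cells from a level near the floor. Raw counts were 2, 3 and 7 in wild-type siGLO and 18, 33 and 48 in Stag2-/- siStag1, or 1.87, 3.05 and 6.78 against 17.7, 34.3 and 48.5 normalized counts. The groups did not overlap, and the log2 fold change was 3.07 (SE 0.64, adjusted p = 0.00145), an 8.37-fold rise. With single libraries left out the log2 fold change ranged from 2.70 (without siStag1 replicate 3) to 3.71 (without wild-type replicate 3). Stag2-/- siGLO libraries had 6.35, 21.6 and 9.50, which overlapped wild type through replicate 1 and Stag2-/- siStag1 through replicate 2 (1.65 against wild type, SE 0.70, adjusted p = 0.107). With DESeq2 that value was 1.68 (adjusted p = 0.099). In edgeR, blocked by replicate number, it had an adjusted p of 0.0731, without Stag2-/- replicate 1 it was 0.0650 and without wild-type replicate 3 it was 0.0918. Without Stag2-/- replicate 2 the log2 fold change was 1.00 (adjusted p = 0.420), and over all single libraries left out it ranged up to 2.29. Adding siStag1 to Stag2-/- cells gave 1.42 (SE 0.55, adjusted p = 0.188, or 0.0920 with the replicate block and 0.0772 without siStag1 replicate 1). With single libraries left out this value ranged from 1.05 (without siStag1 replicate 3, adjusted p = 0.555) to 2.06 (without Stag2-/- siGLO replicate 2, adjusted p = 0.113). Stag1-/- siGLO libraries had 2.95, 0 and 3.62 and wild-type siStag1 libraries 8.16, 7.36 and 2.90. Rarb was called lower in Stag1-/- than in Stag2-/- cells (-2.42, SE 0.76, adjusted p = 0.0373), but not without Stag1-/- replicate 2 (adjusted p = 0.126) or Stag2-/- replicate 2 (adjusted p = 0.180).

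Rarb was tested only because 4 Stag2-/- libraries, 3 of them with siStag1, passed the expression filter. Its exons also share 1793 bases with exons of Top2b, a topoisomerase gene on the opposite strand, and 227 bases with the antisense gene Gm48162. The strand setting of the counting is not given in the sources used here, so it is not known to which gene, if any, reads in the shared bases were counted. Each library also has a summary line of ambiguous reads, apart from the gene counts, with 379446 to 499487 reads. Top2b also rose with siStag1 in Stag2-/- cells, to 2992 ± 597 normalized counts (SD, n = 3) against 1814 ± 137 in wild-type siGLO, a 1.65-fold change (log2 fold change 0.72, adjusted p = 0.00102). Its values in Stag2-/- siStag1 replicates 1, 2 and 3 were 2405, 2972 and 3599, the same order as Rarb. The part of Top2b reads in the Rarb count was not tested. No other member shared exonic bases with another annotated gene.

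Stra8 (chr6:34920163-34939344), a germ cell gene needed for entry into meiosis, rose in Stag2-/- siStag1 cells. Normalized counts were 178, 165 and 231 in wild-type siGLO and 374, 246 and 465 in Stag2-/- siStag1, with no overlap. The rise was 1.89-fold (log2 fold change 0.92, SE 0.29, adjusted p = 0.0211) and was not called without siStag1 replicate 3 (0.70, adjusted p = 0.104). Stag2-/- siGLO cells had 248, 114 and 133, so replicate 1 was just above the lowest siStag1 library. Against these cells siStag1 raised Stra8 2.19-fold (1.13, SE 0.29, adjusted p = 0.0423), and this call was lost without Stag2-/- siGLO replicate 2 (0.92, adjusted p = 0.152) or 3 (adjusted p = 0.131) or siStag1 replicate 3 (adjusted p = 0.204). It was also lost when only the libraries compared were fitted (1.12, adjusted p = 0.213). In wild-type cells siStag1 gave 180, 120 and 191 (-0.23, SE 0.30, adjusted p = 0.999). The siStag1 effect in Stag2-/- cells minus that in wild-type cells was 1.36 (SE 0.42), with an unadjusted p of 0.00481 and an adjusted p of 0.459, so a different response of Stra8 in Stag2-/- cells was not called. With the replicate block it was called (1.37, adjusted p = 0.0312). Without Stag2-/- siGLO replicate 1 this value was 1.78 (adjusted p = 0.0896). Stag1-/- siGLO cells had 135, 91.5 and 157, all below wild type, which passed the threshold only in the fit blocked by replicate (-0.60, adjusted p = 0.0374, against -0.58 and 0.227 without it) or when fitted on the libraries compared alone (adjusted p = 0.0787). The germ cell markers Ddx4, Dazl and Sycp3 summed to 1002 to 1141 normalized counts in wild-type siGLO and 1152 to 1233 in Stag2-/- siStag1, with 0 of 3 called between these conditions. Between Stag2-/- siGLO and siStag1, 2 of 3 rose (sums of 792 to 900 and 1152 to 1233). In wild-type cells, where Stra8 was not called, siStag1 gave sums of 1392 to 1648, with 1 of 3 markers called higher (Ddx4). Of all genes tested, 43.9% were called between Stag2-/- siStag1 and wild-type siGLO cells. With siStag1, 2.98% were higher in Stag2-/- cells and 0.248% were called in wild-type cells. The part of the germ cell markers in the Stra8 result was not tested.

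**Figure D2:**
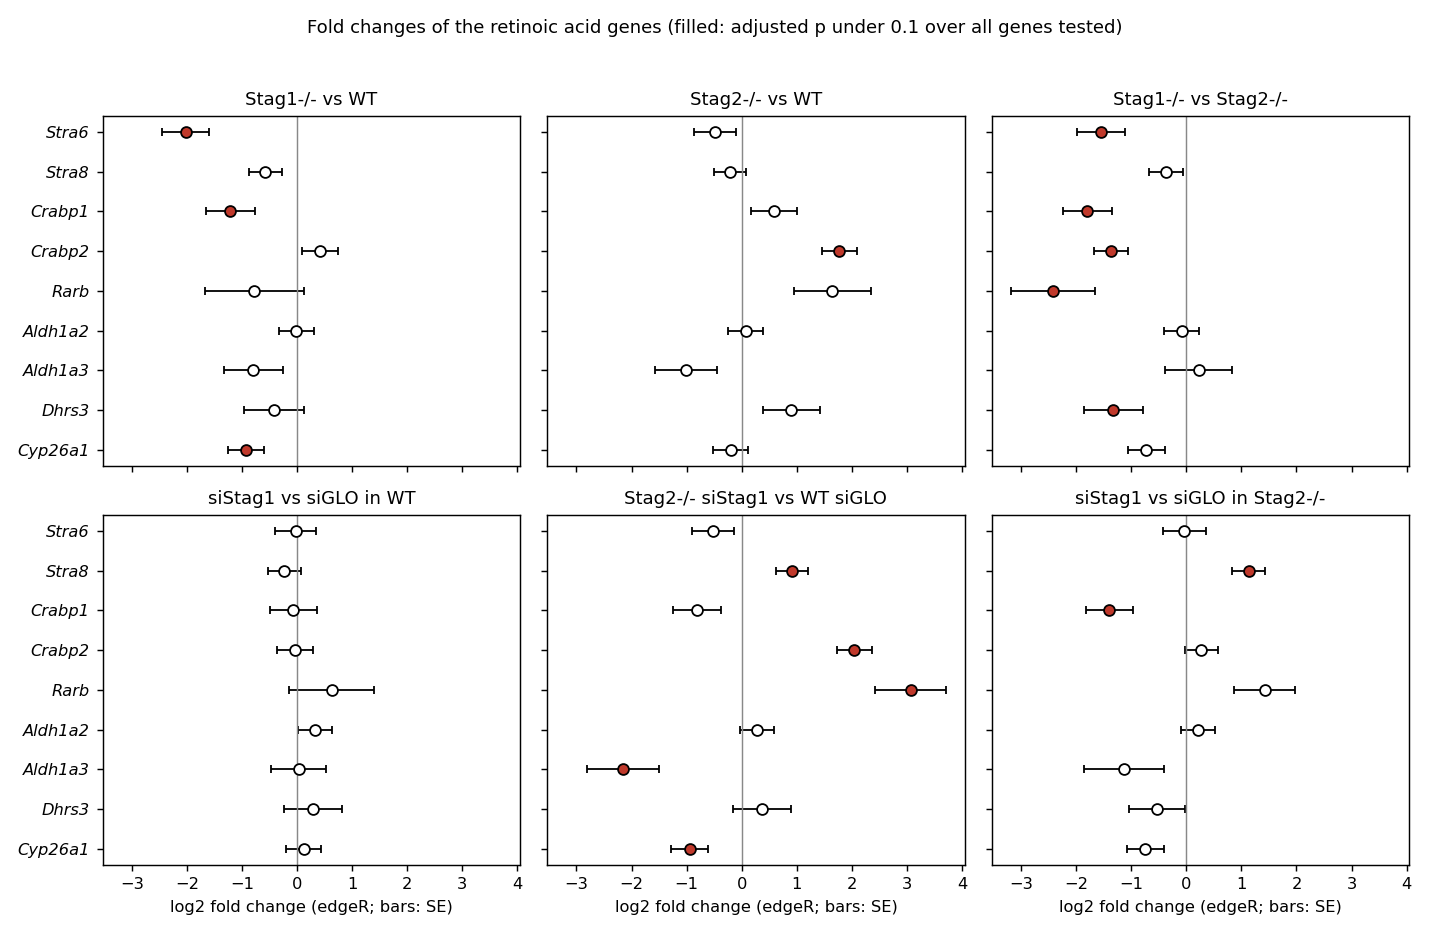
Log2 fold changes with SE (x axis) of the 9 genes in 6 comparisons, filled where the adjusted p was under 0.1. In Stag1-/- cells 3 genes are filled on the lower side, in Stag2-/- siStag1 cells 3 on the higher and 2 on the lower side, and for siStag1 in wild-type cells none is filled.

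Counted over the members, Stag1-/- cells had 3 of 9 called, all lower (Stra6, Crabp1 and Cyp26a1) and none higher, where 20.0% of all genes tested were called, 9.93% lower and 10.1% higher. The count of 3 was 2 without wild-type replicate 1 or Stag1-/- replicate 1 or 3, and 1 without wild-type replicate 2 or 3 or Stag1-/- replicate 2. The replicates of 5 members did not overlap wild type, which was so for 31.7% of all genes. For Stag2-/- cells 1 of 9 was called, where 28.3% of all genes were, 13.9% higher and 14.4% lower. The replicates of 2 members, Crabp2 and Aldh1a3, did not overlap, which was so for 35.7% of all genes. The Stag2-/- siStag1 cells had 5 of 9 called, with Crabp2, Rarb and Stra8 higher and Aldh1a3 and Cyp26a1 lower, where 43.9% of all genes were called, 22.6% higher and 21.3% lower. Rarb and Aldh1a3 were tested only because they were high in Stag2-/- and in wild-type libraries, and the other 7 members gave 3 of these calls. The replicates of 5 members, Rarb and Aldh1a3 among them, did not overlap, against 47.3% of all genes, so both shares lie near the background.

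For siStag1 in wild-type cells 0 of 9 were called by edgeR or DESeq2 and 0 had an unadjusted p under 0.05, where 0.248% of all genes were called. No member had replicates that did not overlap, which 15.5% of all genes had. For siStag1 in Stag2-/- cells 2 of 9 were called, Stra8 higher and Crabp1 lower, where 6.37% of all genes were called, 2.98% higher and 3.39% lower. Only Aldh1a3, which was not called, had replicates that did not overlap, against 19.3% of all genes. Between the knockouts 5 of 9 were called (Stra6, Crabp1, Crabp2, Rarb and Dhrs3), all lower in Stag1-/- than in Stag2-/- cells, where 25.7% of all genes were called, 12.9% lower and 12.7% higher. Rarb had passed the filter through Stag2-/- libraries alone, and 4 of the other 8 were called. The replicates of 4 members, Rarb among them, did not overlap, against 31.0% of all genes. For the siStag1 effect in Stag2-/- cells minus that in wild-type cells, 0 of 9 were called by edgeR or DESeq2, 2 had an unadjusted p under 0.05 (Stra8 and Crabp1), and 0.159% of all genes were called. The median log2 fold change of the members was -0.78 in Stag1-/- cells, 0.07 in Stag2-/- cells, 0.28 in Stag2-/- siStag1 cells and -1.32 between the knockouts, where the medians over all genes tested were -0.01, 0.01, 0.01 and -0.03. Rarb and Aldh1a3 are part of these medians, and -0.78 is the value of Rarb. Without these 2 genes the middle value in Stag1-/- cells was that of Stra8 (-0.58). It stayed that of Aldh1a2 in Stag2-/- (0.07) and Stag2-/- siStag1 cells (0.28). Between the knockouts, without Rarb alone, the 2 middle values were those of Dhrs3 (-1.32) and Cyp26a1 (-0.72).

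Replicates of the Stag2-/- conditions lay apart in the same way for several members. After each condition's mean was taken away, Crabp2 and Dhrs3 varied together over the 15 libraries (r = 0.853), as did Crabp1 and Crabp2 (r = 0.774) and Crabp1 and Dhrs3 (r = 0.658). Cyp26a1 went the other way (r = -0.645 with Dhrs3 and -0.621 with Crabp2). These correlations are descriptions over libraries that share conditions and replicate numbers. Stag2-/- replicate 1 was lowest for Crabp1, Crabp2, Dhrs3 and Rarb with siGLO and with siStag1, and highest for Cyp26a1 in both. The 5 neural markers examined (Sox1, Pax6, Nes, Tubb3 and Map2) summed to 3085, 4478 and 4791 normalized counts in Stag2-/- siGLO replicates 1, 2 and 3 and to 3506, 4605 and 5939 with siStag1, against 2071 to 2906 in wild-type siGLO. Of these markers 3 rose in Stag2-/- cells and 2 in Stag2-/- siStag1 cells, where 13.9% and 22.6% of all genes were higher, and in Stag1-/- cells 1 rose and 1 fell. Their part in the Crabp1, Crabp2, Dhrs3 and Rarb values was not tested.

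**Figure D3:**
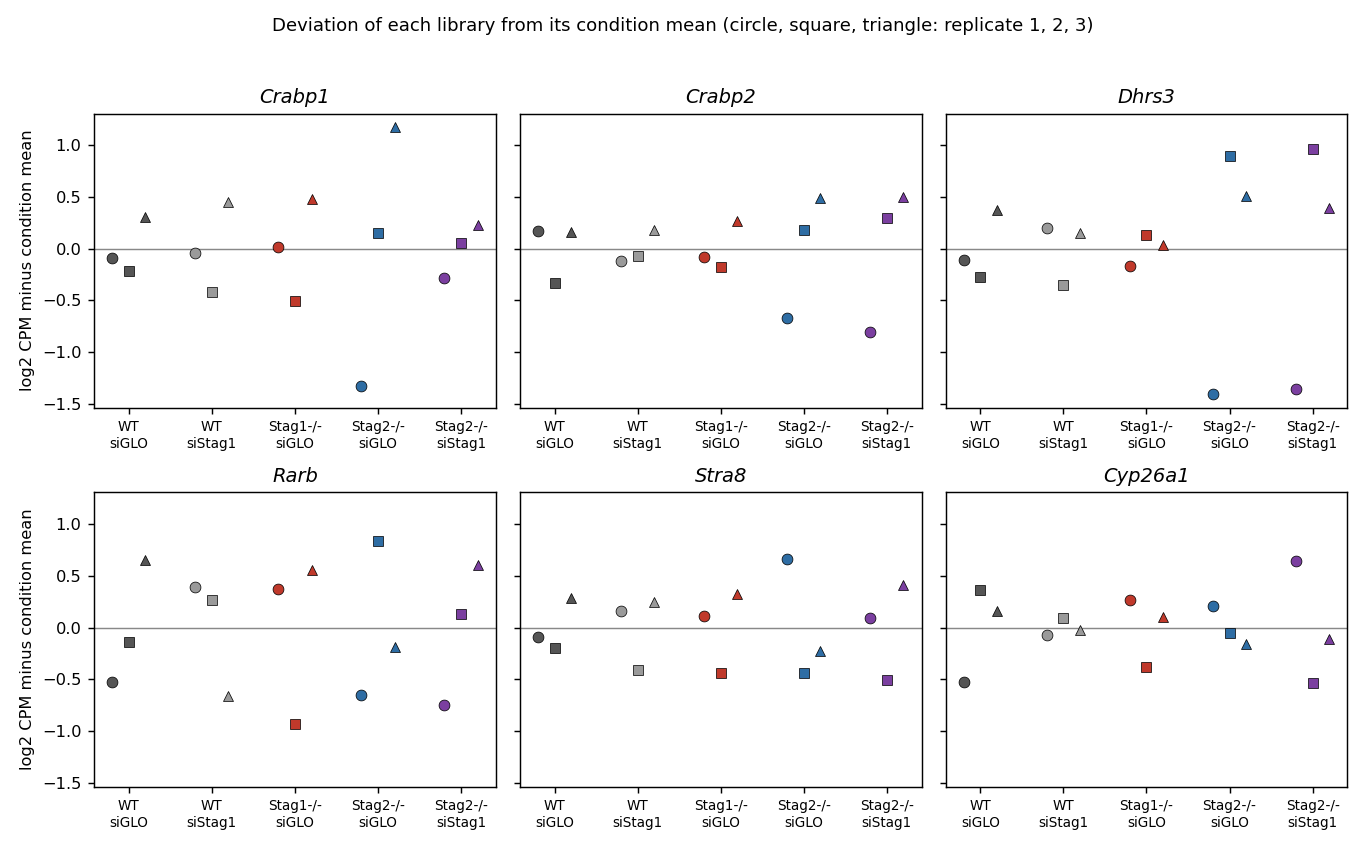
Log2 CPM of each library minus the mean of its condition (y axis) for 6 members, with point shapes for replicate number. Circles (replicate 1) of both Stag2-/- conditions are lowest for Crabp1 (-1.33 and -0.29), Crabp2 (-0.67 and -0.80) and Dhrs3 (-1.41 and -1.36).

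Markers of other states also differed between the conditions. The 7 primitive endoderm markers (Gata6, Gata4, Sox17, Sox7, Pdgfra, Dab2 and Foxa2) all fell in Stag1-/-, Stag2-/- and Stag2-/- siStag1 cells, from sums of 4038 to 4441 normalized counts in wild-type siGLO to 339 to 544, 733 to 1189 and 877 to 1158. Beside these falls, Stra6, Crabp1 and Cyp26a1 were called lower in Stag1-/- cells, none of the 3 was called in Stag2-/- cells, and Cyp26a1 was called lower in Stag2-/- siStag1 cells. Trophoblast markers summed to 278 to 416 in wild-type siGLO, 664 to 939 in Stag1-/-, 143 to 270 in Stag2-/- and 161 to 196 in Stag2-/- siStag1 cells. Of the 4 tested, 3 were higher in Stag1-/-, 2 lower in Stag2-/- and 1 lower in Stag2-/- siStag1 cells. The pluripotency markers summed to 85940 to 91640 in wild-type siGLO, 66400 to 76410 in Stag1-/-, 59390 to 71650 in Stag2-/- and 36840 to 45640 in Stag2-/- siStag1 cells, where 8 of 8 fell. The primitive streak list had 1 of 4 higher and 1 of 4 lower in Stag2-/- cells and likewise with siStag1, and the fibroblast list had 1 of 4 higher in each. Beside these counts, the shares of all genes called higher and lower were 10.1% and 9.93% in Stag1-/-, 13.9% and 14.4% in Stag2-/- and 22.6% and 21.3% in Stag2-/- siStag1 cells. No marker of any list was at 0 in all libraries of a condition, apart from 1 fibroblast marker in Stag2-/- siStag1 cells. The part of these markers in the member results was not tested.

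Outside the members, 51 further genes of retinoid metabolism and response were counted, and 35 of them were tested. By edgeR 4 rose and 2 fell in Stag1-/- cells, 10 rose and 4 fell in Stag2-/- cells, and 17 rose and 7 fell in Stag2-/- siStag1 cells, where 20.0%, 28.3% and 43.9% of all genes tested were called. By DESeq2 4 rose and 4 fell in Stag1-/- cells. For siStag1 in wild-type cells 0 were called by edgeR or DESeq2, and 3 had an unadjusted p under 0.05. Between the knockouts 9 were lower and 3 higher in Stag1-/- cells, where 12.9% and 12.7% of all genes were. Of the 35, 4 (Hoxb1, Hoxb4, Nr2f1 and Cyp26b1) had fewer than 3 libraries above the filter outside Stag2-/- cells. Without them 4 rose and 1 fell in Stag1-/-, 8 rose and 4 fell in Stag2-/-, and 14 rose and 7 fell in Stag2-/- siStag1 cells, and between the knockouts 6 were lower and 3 higher. The medians of the 35 log2 fold changes were 0.01 in Stag1-/-, 0.23 in Stag2-/- and 0.43 in Stag2-/- siStag1 cells, and 0.01, 0.12 and 0.41 without those 4 genes.

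Rdh10, which oxidises retinol to retinaldehyde, rose in all 3 mutant conditions, by 0.57 on the log2 scale in Stag1-/-, 0.68 in Stag2-/- and 0.92 in Stag2-/- siStag1 cells (adjusted p = 0.0466, 0.0155 and 0.000988). The Stag1-/- call was lost without wild-type replicate 1 or 2 or Stag1-/- replicate 1 or 2, with adjusted p up to 0.207. The genes that fell in Stag1-/- cells were Rbp4, a retinol carrier of blood plasma, and Cyp26b1, a relative of Cyp26a1. Rbp4 went from 31.7 ± 9.62 to 11.9 ± 6.09 normalized counts (adjusted p = 0.0306, or 0.124 without wild-type replicate 3 and 0.128 without Stag1-/- replicate 1). Cyp26b1 had 6, 6 and 31 raw counts in wild-type siGLO and 3, 4 and 3 in Stag1-/- siGLO, so most wild-type reads came from replicate 3. Its log2 fold change of -2.09 (adjusted p = 0.0928) was -0.86 without that library (adjusted p = 0.557), and the call was also lost without any 1 Stag1-/- replicate (adjusted p from 0.155 to 0.214). These 2 genes were named after their values were seen. The 3 further retinaldehyde-oxidising genes, Aldh1a1, Aldh1a7 and Aldh8a1, did not pass the filter, and they summed to at most 8.45 normalized counts in any library. Of 8 retinol and retinaldehyde interconverting genes tested, Rdh10 was the only one called in Stag1-/- cells. Of all genes tested, 20.0% were called in Stag1-/- cells. In Stag2-/- cells 13.9% were higher and 14.4% lower, and in Stag2-/- siStag1 cells 22.6% and 21.3%. Of the 8, 1 rose (Rdh10) and 1 fell in Stag2-/- cells, and 2 rose and 3 fell in Stag2-/- siStag1 cells. Those that fell, named after their values were seen, were Rdh11, a retinaldehyde reductase gene (-0.65 in Stag2-/- cells, adjusted p = 0.0511, and -0.81 with siStag1, adjusted p = 0.0104), and, called in Stag2-/- siStag1 cells but not in Stag2-/- cells, Adh5 (-0.30, adjusted p = 0.00359) and Rdh13 (-0.31, adjusted p = 0.0703). The Rdh11 call in Stag2-/- cells was lost without wild-type replicate 2 or 3 or Stag2-/- replicate 1 or 2 (adjusted p up to 0.165), and the Rdh13 call without wild-type replicate 2 or siStag1 replicate 1 (adjusted p up to 0.271). Rdh14, also named after its values were seen, went the other way. It had 86.3 ± 22.56 normalized counts in wild-type siGLO and 123.6 ± 15.25 in Stag2-/- siStag1 cells.

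Among the 5 other receptor genes, 1 rose in Stag1-/-, 2 in Stag2-/- and 4 in Stag2-/- siStag1 cells, and none fell, where 10.1%, 13.9% and 22.6% of all genes were called higher. Of the 4 calls, that of Rara was lost without wild-type replicate 1 or 2 or siStag1 replicate 1 (adjusted p from 0.114 to 0.189), and that of Rxra without any 1 of 5 of the 6 libraries, the exception being siStag1 replicate 1 (adjusted p from 0.115 to 0.351). Both genes, retinoic acid and retinoid X receptor genes, were named after their values were seen. Rxrb, a partner of the retinoic acid receptors, rose by 0.41, 0.29 and 0.43 on the log2 scale (adjusted p = 0.00749, 0.0392 and 0.00232). Its Stag2-/- call was lost without Stag2-/- replicate 1 or wild-type replicate 2 or 3, with adjusted p up to 0.124. The co-activator genes Ncoa2 and Ncoa3 moved in opposite directions in Stag2-/- siStag1 cells, Ncoa2 from 969 ± 54.0 to 1611 ± 39.7 normalized counts (log2 fold change 0.73, adjusted p = 4.77e-06) and Ncoa3 from 5208 ± 316 to 3400 ± 290 (-0.62, adjusted p = 0.000423). Fabp5, a fatty acid carrier that also binds retinoic acid, rose like Crabp2 in Stag2-/- (1.00, adjusted p = 0.000621) and Stag2-/- siStag1 cells (1.41, adjusted p = 9.3e-06), and was lower in Stag1-/- than in Stag2-/- cells (-0.90, adjusted p = 0.00146).

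Of 10 tested genes known to be induced by retinoic acid, 0 were called in Stag1-/- cells by edgeR (2 at an unadjusted p under 0.05) and 1 by DESeq2. By edgeR, 3 rose and 1 fell in Stag2-/- cells, and 6 rose and 2 fell in Stag2-/- siStag1 cells. Of all genes tested, 20.0% were called in Stag1-/- cells, 13.9% were higher and 14.4% lower in Stag2-/- cells, and 22.6% were higher and 21.3% lower in Stag2-/- siStag1 cells. The medians of the 10 log2 fold changes were 0.05, 0.80 and 1.43. Hoxb1, Hoxb4 and Nr2f1 were tested because they were high in Stag2-/- libraries. For the other 7 the counts were 1 higher and 1 lower in Stag2-/- cells and 3 higher and 2 lower in Stag2-/- siStag1 cells, with medians of -0.02, 0.58 and 0.91. Hoxb1, a hindbrain patterning gene, had 1 raw count over 3 wild-type siGLO libraries and 6 over Stag1-/- libraries, against 62 over Stag2-/- and 78 over Stag2-/- siStag1 libraries. It was called in both Stag2-/- conditions (adjusted p = 0.00133 and 0.000296). Meis2, a homeobox gene, had 20.3 to 45.8 normalized counts in wild-type siGLO, 7.79 to 18.1 in Stag1-/-, 67.7 to 345 in Stag2-/- and 107 to 155 in Stag2-/- siStag1 libraries. It was 17.1-fold lower in Stag1-/- than in Stag2-/- cells (log2 fold change -4.10, adjusted p = 7.85e-05). Hoxb4 rose in Stag2-/- siStag1 cells (2.51, adjusted p = 0.00101), as did the pioneer factor gene Foxa1 (1.90, adjusted p = 0.00138). Tgm2, a transglutaminase gene, fell by 1.12 in Stag2-/- (adjusted p = 0.0186, with overlapping replicates, or 0.101 without wild-type replicate 3) and by 1.59 in Stag2-/- siStag1 cells (adjusted p = 0.00104). The known response genes, like the members, thus moved in both directions in Stag2-/- siStag1 cells.

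**Figure D4:**
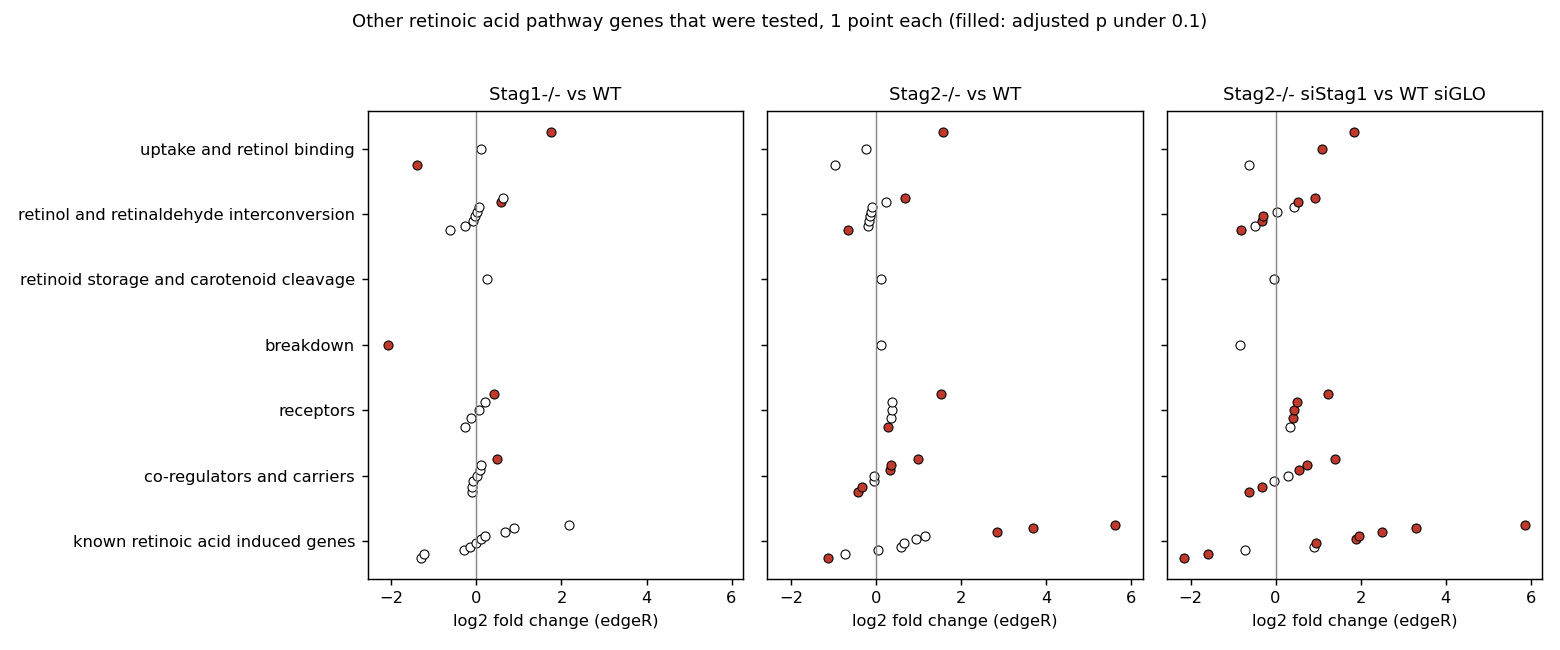
Log2 fold changes (x axis) of the 35 other pathway genes tested, 1 point each, by group (y axis) and filled where the adjusted p was under 0.1. Filled points number 6 in Stag1-/-, 14 in Stag2-/- and 24 in Stag2-/- siStag1 cells.

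Over the 15 libraries, the genes whose log2 CPM followed a member most closely were, for Crabp2, Hmgb3 (r = 0.980), St8sia3 (0.974) and Igfbp5 (0.973). For Dhrs3 they were Gpc3 (0.940), Sirpa (0.935) and Tmem181a (0.904), and for Rarb Ccnj (0.927), Tcf4 (0.924) and Tenm3 (0.922). For Stra6 the closest was Csnk1e (0.904), for Aldh1a3 Fam131c (0.913), for Stra8 4930503L19Rik (0.880), for Cyp26a1 Slc38a6 (0.866), for Crabp1 Mutyh (0.856) and for Aldh1a2 Ormdl3 (0.816). Among the members themselves, Crabp2 and Rarb had the highest r (0.776), followed by Crabp1 and Dhrs3 (0.677) and Crabp1 and Stra6 (0.633), and Crabp2 and Aldh1a3 had the lowest (-0.589). These values describe 15 libraries of 5 conditions, which share genotypes, replicate numbers and similar depth.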

How the data were processed

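PolyA RNA was sequenced from 15 libraries of 5 conditions. The authors aligned paired-end reads to mm10 with STAR, per the submitters' processing notes and methods, and deposited raw counts per gene without normalization. The counting tool, its annotation and its strand setting are not given in the sources used here. The 4 summary lines of each library, which held between 19.8% and 23.4% of its counted reads, were left out.

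The edgeR package (4.0.16, in R 4.3.3) kept genes by filterByExpr (minimum count 10 and total 15), scaled libraries by TMM and fitted all 15 libraries together by glmQLFit, with a coefficient for each condition. Contrasts were tested two-sided by glmQLFTest. Benjamini-Hochberg adjustment ran over the 14508 genes tested, and genes were called under 0.1, the study's threshold. The SE is the log2 fold change divided by the square root of F. Likeness is Pearson r of log2 CPM (prior count 2). Positions are from GENCODE M21 (mm10) and promoters from RefSeq (GRCm38.p6). The script was tested on simulated data. Python 3.11.15 with matplotlib 3.10.9 drew the figures.

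All members were tested in every comparison. Of the other pathway genes, up to 12 called against wild-type siGLO were named in order of their smallest adjusted p, and any other is said to have been named after its values were seen. Some genes that this rule brings in are not reported by name. The members, lists and tests were chosen with earlier results of these data known. Alternatives were DESeq2 1.42.0, its size factors in edgeR, library size alone, no filter, a stricter filter (CPM of at least 1 in 3 libraries), a threshold of 0.05, a fit on only those libraries that a comparison involves, the replicate block, each library left out, and, chosen after seeing the data, Stag2-/- replicate 1 left out of both conditions, each library left out for the other pathway genes called, and list counts without genes that had fewer than 3 libraries above the filter outside Stag2-/- cells.

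The replicate numbers come from the labels, which do not say what they mark. Deviations from condition means correlated with a mean r of 0.304 over 30 same-numbered pairs of libraries and -0.148 over 60 others (12001 genes). In 5 of the comparisons every same-numbered pair was above 0.1, and in those between Stag2-/- siStag1 and wild type and between the siStag1 effects not every pair was. No libraries of a condition were copies (chi-square over degrees of freedom 4.52 to 25.2). The study calls its RNA-seq replicates biological but does not say whether they were separate cultures, so p-values measure the spread between these samples.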

Additional observations from a re-analysis of the deposited data

How the results depend on the processing

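Of 965 member values recomputed over the 63 log2 fold changes, 871 kept their direction and their side of the threshold, 37 kept their direction and lost the call, 22 gained one and 35 changed sign, none of them a called value. The number of members called moved as follows. In Stag1-/- cells it was 4 with the replicate block or with only the libraries compared (each adding Stra8), 1 at an adjusted p under 0.05 and 1 to 2 with a library left out. In Stag2-/- cells it was 2 with DESeq2 or with the replicate block (each adding Rarb), 1 to 4 with a library left out and 4 without replicate 1 of both Stag2-/- conditions. In Stag2-/- siStag1 cells it was 6 with the replicate block and 3 to 5 with a library left out. For siStag1 in Stag2-/- cells it was 3 with the replicate block, 1 with library size alone, 0 with only the libraries compared, 1 at an adjusted p under 0.05 and 0 to 3 with a library left out. Between the knockouts it was 3 with only the libraries compared and 3 to 5 with a library left out, and at an adjusted p under 0.05 the call of Dhrs3 was lost. For the difference between the siStag1 effects it was 1 with the replicate block, 0 to 1 with a library left out and 1 without replicate 1 of both Stag2-/- conditions. The cause was not tested.

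The replicate block added the calls of Stra8 in Stag1-/- cells (-0.60), Rarb in Stag2-/- cells (1.64) and under siStag1 in Stag2-/- cells (1.41), Crabp1 in Stag2-/- siStag1 cells (-0.81, adjusted p = 0.0406) and Stra8 in the difference between siStag1 effects (1.37, adjusted p = 0.0312), and it changed no other call. In the last 2 comparisons not every same-numbered pair correlated above 0.1. Without replicate 1 of both Stag2-/- conditions, Crabp1 (-0.68, adjusted p = 0.0940) and Dhrs3 were also called in Stag2-/- siStag1 cells, which made 7 calls.

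Signs changed as libraries were left out for log2 fold changes that were not called. In Stag1-/- cells Aldh1a2 ranged from -0.22 to 0.30 (0.0063 with no filter). In Stag2-/- cells Crabp1 ranged from -0.16 to 1.01 and Aldh1a2 from -0.075 to 0.39. Under siStag1 in wild-type cells Stra6 ranged from -0.18 to 0.20, Crabp1 from -0.33 to 0.12, Crabp2 from -0.19 to 0.046, Aldh1a3 from -0.26 to 0.25 and Cyp26a1 from -0.11 to 0.31. In Stag2-/- siStag1 cells Dhrs3 ranged from -0.18 to 0.80. Under siStag1 in Stag2-/- cells Stra6 ranged from -0.40 to 0.52 (0.040 with the replicate block, 0.11 without replicate 1 of both Stag2-/- conditions), and Aldh1a2 was -0.011 without replicate 1 of both. Between the knockouts Stra8 ranged from -0.57 to 0.051 (0.051 without replicate 1 of both) and Aldh1a2 from -0.29 to 0.18. In the difference between siStag1 effects Stra6 ranged from -0.37 to 0.54 (0.074 with the replicate block, 0.13 without replicate 1 of both) and Aldh1a2 from -0.43 to 0.035.

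Calls held under every alternative that gave a value for Stra6 in Stag1-/- cells, for Crabp2 in Stag2-/- and Stag2-/- siStag1 cells, for Rarb and Aldh1a3 in Stag2-/- siStag1 cells, and for Crabp1 and Crabp2 between the knockouts. Rarb and Aldh1a3 passed the filter only through Stag2-/- and wild-type libraries respectively, where each is high, so their calls are no sign of stability. The stricter filter removed Aldh1a3. The fit on only the libraries compared did not test it in Stag2-/- siStag1 cells against wild type, so 13 of 15 alternatives gave a value. That fit also did not test Rarb in comparisons without Stag2-/- siStag1 cells. Depth limits Rarb and Aldh1a3 most, with 12 and 29 raw counts over the 3 wild-type siGLO libraries.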
